A study of Mus musculus with 21 samples.

Results

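The p53 pathway was examined through 34 listed genes that regulate p53 or are known targets of it, across cultures and tumours of 2 mouse mammary carcinoma lines. Each gene was read from a probe set assigned to a single symbol, and 30 of the 34 genes had one, among 22180 genes measured in the series. The p53 gene itself, Trp53, and Bax were not analysed here. Gadd45a and Ddb2 were read only by probe sets that also carry another gene, so their values are described separately and not tested. Of the measured genes, 3 regulate p53 or are regulated upstream of it, 8 act in cell-cycle arrest, 13 in cell death and 6 in repair, antioxidant defence or metabolism.

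Affymetrix whole-transcript arrays gave RNA levels for 21 samples. Py117 and Py8119 are lines derived from clones of tumours in MMTV-PyMT mice, in which a mammary tumour virus promoter drives the polyomavirus middle T oncogene mainly in mammary epithelium. All groups carry this transgene, none was treated, and no sample was irradiated. The series calls Py117 clones sensitive and Py8119 clones resistant and asks how both respond in a shared microenvironment.

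The culture groups were Py117 (3 arrays) and Py8119 (3 arrays). The tumour groups were Py117, Py8119 and a mixed group made from equal parts of both lines (5 arrays each). Each implant held 1000000 cells in matrigel and PBS, placed in mammary fat pad 4, and tumours were harvested when radiotherapy would ordinarily have started. Strain, sex and age of the hosts were not given in the sources used here. Samples were labelled as biological replicates, and p-values measure the spread between them. Each line stands for 1 genotype and history, so a difference between lines is a difference between these lines only.

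p53 is a transcription factor that is held at a low level by the ubiquitin ligase Mdm2 and its partner Mdm4. DNA damage or oncogene signalling relieves this restraint, the latter largely through the Arf protein of the Cdkn2a locus, which binds Mdm2. Active p53 raises transcription of genes for arrest (Cdkn1a), death (Bbc3, Pmaip1, Fas, Perp), repair (Ddb2, Rrm2b) and of Mdm2 itself. Several targets, Perp and Cdkn1a among them, also respond to other factors and differ between cell types. Levels of these mRNAs are therefore not a measure of p53 activity on their own.

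The deposited values are log2 signals, and array medians ran from 5.24 to 5.53. As a reference for background, 1394 olfactory and vomeronasal receptor genes had a 95th percentile of 5.31. Values compare samples for 1 gene and do not rank genes by abundance. The label of mammary carcinoma was checked with 30 epithelial marker genes. Their mean ran from 8.93 to 8.99 in Py117 cultures and from 5.57 to 5.85 in Py8119 cultures, where 13 of the 30 had group means below that reference. Epcam, an epithelial adhesion protein, was at 10.58 ± 0.19 (SD, n = 3) in Py117 and 5.07 ± 0.21 (n = 3) in Py8119 cultures, so this defining marker was at background in Py8119. The epithelial mean was 8.19 to 8.71 in Py117 tumours, 6.59 to 6.98 in mixed tumours and 5.89 to 5.94 in Py8119 tumours.

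Tumours also held host cells. The mean of 10 fibroblast genes rose from 5.47 to 5.66 in Py117 cultures to 9.36 to 10.40 in Py117 tumours, and from 6.27 to 6.33 to 8.09 to 9.0 in Py8119. The mean of 9 adipocyte genes was 8.46, 5.93, 6.04, 7.50 and 8.56 in Py117 tumours 1 to 5, against 5.57 to 6.34 in the other tumours. Host markers also differed between the tumour groups. In Py8119 against Py117 tumours, limma called all 10 endothelial genes lower (median -1.69), 9 of 10 fibroblast genes lower and 1 higher (median -1.79), 8 of 9 adipocyte genes lower (median -1.41), and 7 of 13 immune genes lower and 4 higher (median -0.98). In mixed against Py117 tumours the endothelial, fibroblast and adipocyte counts were the same (medians of -1.22, -1.45 and -1.38), and 2 immune genes were lower and 4 higher. The part of host cells in the tumour differences given here was not tested. In bulk samples, fewer cells of a type and less RNA per cell cannot be told apart.

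RefSeq promoters (build GRCm38.p6, 250 bases before to 50 after the start of a transcript) were listed for 24 of the 30 genes, in 31 windows. They were searched on both strands for the p53 consensus decamer, of which a p53 element usually holds a pair, and for the E-box CACCTG, which Zeb and Snai repressors bind. The motifs did not overlap in the windows shown. The decamer was found in 7 windows of 6 genes and in 8.36% of all 32851 windows, and CACCTG in 7 windows of 6 genes and 20.2% of all. The bases upstream of the start are shown 5′ to 3′ in lower case with decamers in capitals. Cdkn2a and Dram1 are shown because they differed by at least 1 log2 unit between lines in both settings. Mdm2, Cdkn1a and Ccng1, chosen after their values were seen, are genes lower in Py8119 cultures whose line difference was smaller in tumours and whose window holds a decamer. Perp and Trp53inp1 also differed by that much, but no promoter was listed for them, so neither motif was searched there. Fas did too, but at most 4 genes were taken, by the size of the mean difference. It came after Perp, Trp53inp1, Cdkn2a and Dram1.
Mdm2, chr10:117710759-117711008, minus strand: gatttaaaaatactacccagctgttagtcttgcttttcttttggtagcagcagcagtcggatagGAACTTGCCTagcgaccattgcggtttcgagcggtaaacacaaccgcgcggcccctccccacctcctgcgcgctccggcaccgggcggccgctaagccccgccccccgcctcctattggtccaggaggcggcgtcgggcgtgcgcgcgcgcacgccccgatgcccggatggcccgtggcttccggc
Cdkn1a, chr17:29090729-29090978, plus strand: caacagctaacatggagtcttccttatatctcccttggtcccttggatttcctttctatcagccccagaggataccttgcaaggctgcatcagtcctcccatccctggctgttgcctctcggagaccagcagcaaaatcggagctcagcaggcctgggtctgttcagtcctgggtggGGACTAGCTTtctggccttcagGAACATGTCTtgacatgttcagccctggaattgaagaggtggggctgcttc
Ccng1, chr11:40755287-40755536, minus strand: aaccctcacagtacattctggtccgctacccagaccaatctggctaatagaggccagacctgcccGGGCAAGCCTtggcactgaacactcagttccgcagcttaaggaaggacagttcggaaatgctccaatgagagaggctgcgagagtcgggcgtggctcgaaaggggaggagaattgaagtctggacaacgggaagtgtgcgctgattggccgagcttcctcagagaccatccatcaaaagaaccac
Cdkn2a, outer start, chr4:89294620-89294869, minus strand: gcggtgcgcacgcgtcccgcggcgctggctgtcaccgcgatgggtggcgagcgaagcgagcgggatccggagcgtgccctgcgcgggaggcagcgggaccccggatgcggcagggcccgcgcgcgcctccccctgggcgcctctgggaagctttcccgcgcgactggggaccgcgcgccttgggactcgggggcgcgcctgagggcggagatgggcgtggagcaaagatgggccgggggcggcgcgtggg
Cdkn2a, inner start, chr4:89282193-89282442, minus strand: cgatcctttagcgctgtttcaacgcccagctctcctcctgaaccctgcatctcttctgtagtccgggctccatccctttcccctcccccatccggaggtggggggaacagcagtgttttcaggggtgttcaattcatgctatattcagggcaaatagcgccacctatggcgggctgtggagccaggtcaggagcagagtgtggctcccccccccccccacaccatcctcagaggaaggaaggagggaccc
Dram1, chr10:88357076-88357325, minus strand: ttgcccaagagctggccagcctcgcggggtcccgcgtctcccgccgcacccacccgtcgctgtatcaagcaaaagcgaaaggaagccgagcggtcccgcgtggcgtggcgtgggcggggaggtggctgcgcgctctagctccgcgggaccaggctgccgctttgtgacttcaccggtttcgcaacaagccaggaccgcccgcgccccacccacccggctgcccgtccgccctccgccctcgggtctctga

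Both decamers of Cdkn1a begin at positions -73 and -51 from the upstream of its listed starts. That start lies 2790 bases from the other one, whose window holds CACCTG at -187 and no decamer. The decamer begins at -186 in Mdm2 and at -185 in Ccng1. Neither motif was found in the windows of Cdkn2a or Dram1. A match describes these letters and does not show that a factor binds there.

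The p53 genes were mostly lower in Py8119 than in Py117. In cultures, 16 of 30 were called lower and 5 higher (limma, adjusted p under 0.05), against 12.3% lower and 14.5% higher among all genes, and the median difference was -0.57 against -0.01 for all genes. In tumours, 16 were lower and 9 higher, against 16.5% and 21% of all genes, with medians of -0.36 and 0.01. In all, 21 p53 genes were called in cultures (26.8% of all genes) and 25 in tumours (37.4%). In both settings 13 genes were lower in Py8119: Mdm4, Cdkn1a, Perp, Trp53inp1, Fas, Tnfrsf10b, Ccng1, Btg2, Zmat3, Phlda3, Ei24, Ercc5 and Dram1. The 4 genes higher in Py8119 in both were Cdkn2a, Cdkn2b, Tigar and Rrm2b. The share of all genes called alike in both settings was not counted. Bbc3, Aen and Sfn were called in neither. After centring each array on its median, 8 genes rather than 5 were higher in Py8119 cultures, and the count of lower genes stayed at 16.

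**Figure D1:**
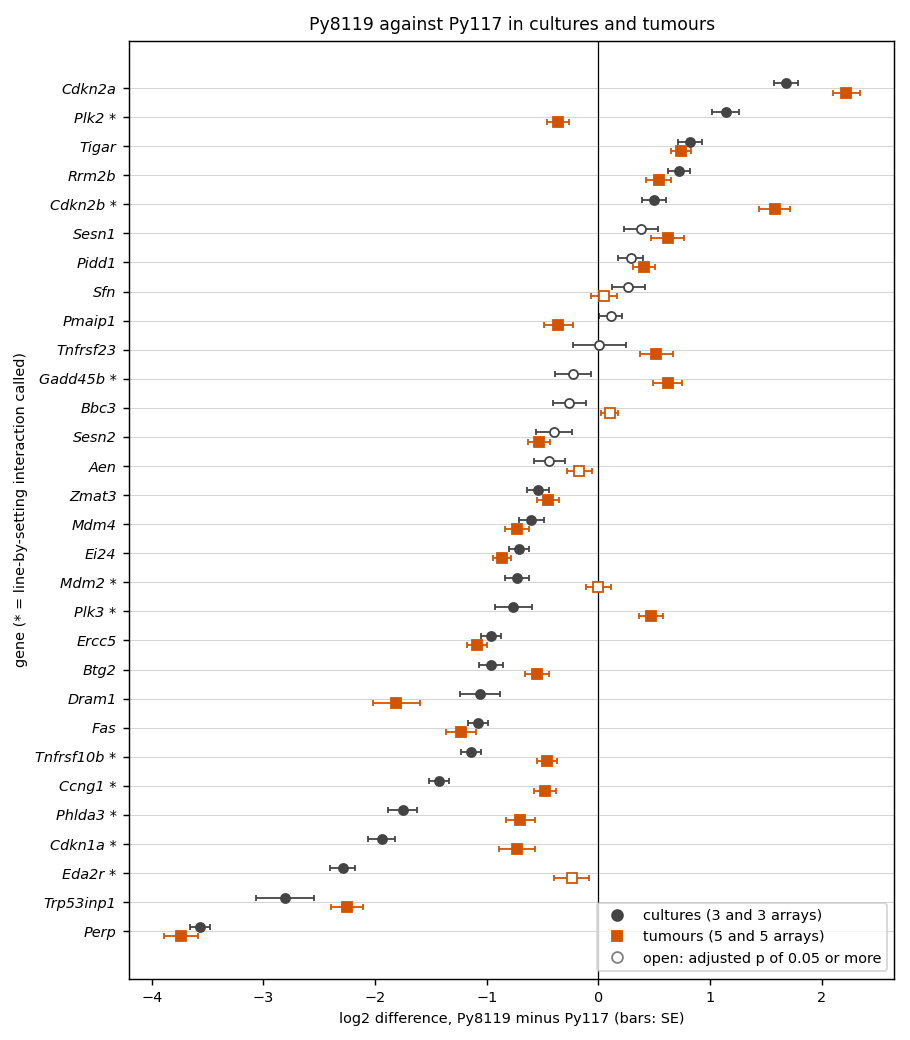
Log2 difference of Py8119 minus Py117 for each of the 30 p53 genes in cultures and in tumours, with bars for the SE. Points left of 0 are lower in Py8119. Perp lies farthest to the left in both settings (-3.57 and -3.74) and Cdkn2a farthest to the right (1.68 and 2.22).

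Among the regulators, Cdkn2a stood out by its direction. The locus encodes Arf, the inhibitor of Mdm2, and Ink4a, an inhibitor of the Cdk4 and Cdk6 kinases, and its probe set does not separate them. Cdkn2a was at 9.15, 9.20 and 8.95 in Py117 cultures and at 10.84, 10.65 and 10.84 in Py8119 cultures. In Py117 tumours it was at 8.68, 8.76, 9.17, 8.46 and 8.42, and in Py8119 tumours at 10.98, 10.95, 10.97, 10.91 and 10.78. Every Py8119 sample was above every Py117 sample, and so were the mixed tumours (10.65, 10.76, 10.62, 10.72 and 10.92). The difference was 1.68 ± 0.11 (SE) in cultures (3.19-fold, limma adjusted p = 5.84e-05) and 2.22 ± 0.12 in tumours (4.67-fold, adjusted p = 8.52e-11). The change of 0.55 ± 0.20 between settings did not pass (limma interaction, adjusted p = 0.0778), but it did without Py117 tumour 3 (adjusted p = 0.00459).

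Mdm2 and Mdm4 restrain p53 and went different ways in tumours. Mdm2, a direct p53 target as well, was at 9.77, 9.68 and 9.84 in Py117 cultures and at 8.90, 9.20 and 9.0 in Py8119 cultures, a difference of -0.73 ± 0.11 (limma adjusted p = 0.00256). In tumours its group means were all 8.58, and the difference between lines was 0.00 ± 0.11 (adjusted p = 0.989). The line difference itself changed between settings, by 0.73 ± 0.17 (limma interaction, adjusted p = 0.00822). Mdm4 was at 8.57 ± 0.02 (SD, n = 3) and 7.97 ± 0.15 (n = 3) in Py117 and Py8119 cultures and at 9.29 ± 0.25 (n = 5) and 8.56 ± 0.11 (n = 5) in the tumours. It was lower in Py8119 in each (-0.60 ± 0.11, adjusted p = 0.00535, and -0.73 ± 0.11, adjusted p = 3.27e-05), and the interaction of -0.12 ± 0.18 did not pass the test (adjusted p = 0.728). Without the Py117 tumours of highest adipocyte mean (1, 4 and 5), which kept only Py117 tumours 2 and 3, the tumour difference of Mdm4 was -0.46 (adjusted p = 0.00445). All Mdm4 samples of Py8119 lay below those of Py117 in each setting.

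In 5 of the 8 arrest genes the line difference was more positive in tumours, and in 1 more negative (limma interaction). Among all genes these shares were 7.5% and 5.99%. Cdkn1a encodes the cyclin-dependent kinase inhibitor p21. It was at 10.08, 10.19 and 10.10 in Py117 cultures and at 7.96, 8.26 and 8.32 in Py8119 cultures, 3.84-fold lower in Py8119 (-1.94 ± 0.12, limma adjusted p = 4.11e-05). In tumours it was at 9.17, 9.65, 9.89, 9.20 and 9.03 for Py117 and at 9.01, 8.59, 8.68, 8.41 and 8.58 for Py8119. The groups did not overlap, but Py117 tumour 5 and Py8119 tumour 1 nearly met, and the difference was -0.73 ± 0.16 (adjusted p = 0.00111). It was larger, at -1.11 (adjusted p = 8.08e-05), without Py117 tumours 1, 4 and 5. The change of 1.21 ± 0.25 between settings passed the test (limma interaction, adjusted p = 0.00274).

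Cdkn1a was lower in tumours than in culture for Py117 (-0.73 ± 0.19, limma adjusted p = 0.0124) and higher for Py8119 (0.47 ± 0.14, adjusted p = 0.0222). Neither of these calls held throughout: without Py117 culture 2 the first had an adjusted p of 0.0524, and without Py117 tumours 1, 4 and 5 0.0955. The second had an adjusted p of 0.0917 without Py8119 culture 1 and of 0.157 after median centring. The interaction passed under all of these settings.

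Ccng1, a cyclin G that recruits a phosphatase to Mdm2, followed the same order. It was at 11.08, 10.98 and 11.04 in Py117 cultures against 9.58, 9.63 and 9.60 in Py8119 cultures (-1.43 ± 0.09, limma adjusted p = 3.75e-05). In tumours the means were 10.95 ± 0.26 (SD, n = 5) and 10.47 ± 0.06 (n = 5), with no overlap. Its interaction was 0.95 ± 0.17 (adjusted p = 0.000885). The Py117 tumours did not differ from Py117 cultures by the test (-0.09 ± 0.15, adjusted p = 0.720), and Py8119 tumours were above Py8119 cultures by 0.87 ± 0.08 (adjusted p = 1.83e-05).

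Cdkn2b, the neighbour of Cdkn2a that encodes the kinase inhibitor Ink4b, was higher in Py8119 and more so in tumours. Its means were 8.38 ± 0.16 (SD, n = 3) and 8.88 ± 0.07 (n = 3) in Py117 and Py8119 cultures and 7.94 ± 0.36 (n = 5) and 9.52 ± 0.16 (n = 5) in the tumours. The difference was 0.50 ± 0.11 in cultures (limma adjusted p = 0.0153) and 1.58 ± 0.14 in tumours (adjusted p = 3.84e-08). The culture call rested on single arrays: without Py117 culture 1 or 2 or Py8119 culture 1 its adjusted p was 0.0502 to 0.0584. The interaction was 1.09 ± 0.23 (adjusted p = 0.00357).

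Plk2 and Plk3, polo-like kinases induced by stress, changed direction between settings. Plk2 was higher in Py8119 cultures by 1.14 ± 0.12 (limma adjusted p = 0.000598) and lower in Py8119 tumours by a difference of -0.36 ± 0.10 (adjusted p = 0.00886). Without Py117 tumours 1, 4 and 5, the tumour difference of Plk2 was -0.18 with an adjusted p of 0.289. Plk3 was lower in Py8119 cultures (-0.76 ± 0.17, adjusted p = 0.0140) and higher in Py8119 tumours (0.47 ± 0.11, adjusted p = 0.00277), with no overlap in either setting. The interactions were -1.50 ± 0.17 for Plk2 (adjusted p = 8.59e-06) and 1.22 ± 0.20 for Plk3 (adjusted p = 0.000491).

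The other arrest genes were Btg2, Gadd45b and Sfn. Btg2, an antiproliferative factor, was lower in Py8119 in cultures (-0.96 ± 0.11) and tumours (-0.55 ± 0.11). Gadd45b, a stress sensor, did not pass the test in cultures (-0.23 ± 0.16) and was higher in Py8119 tumours by 0.62 ± 0.13 (limma adjusted p = 0.000739), with overlap between groups. That call was lost without Py117 tumours 1, 4 and 5 (adjusted p = 0.0797). Sfn, an epithelial 14-3-3 protein known as a p53 target, had group means of 7.58 to 7.85 and was called in none of the 7 comparisons as deposited. After median centring, Sfn was higher in Py8119 than in Py117 cultures (limma adjusted p = 0.0452). It was then also lower in Py8119 tumours than in Py8119 cultures (-0.32, adjusted p = 0.0326).

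**Figure D2:**
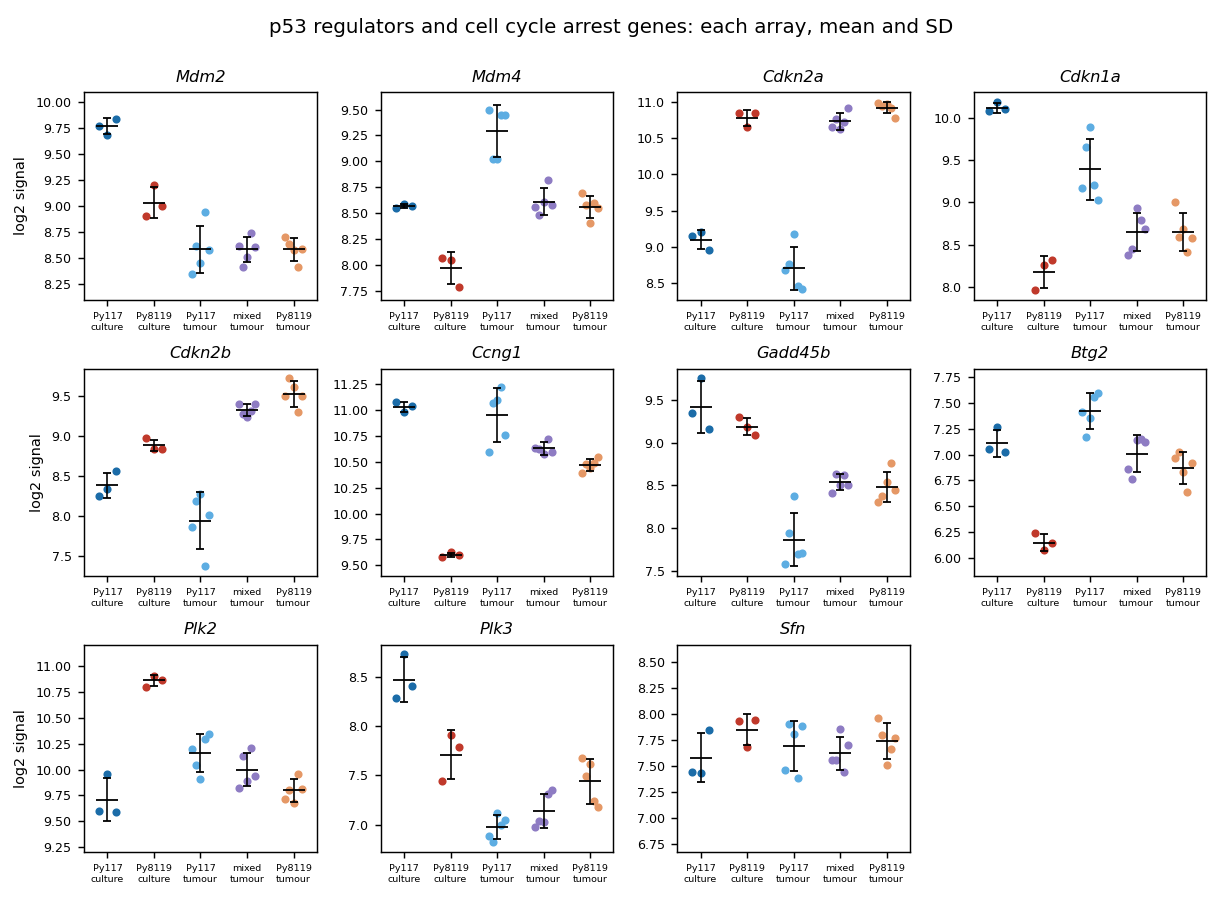
Log2 signal of the regulators and arrest genes on each array, by group, with the mean and SD (3 arrays in each culture group, 5 in each tumour group). Cdkn2a sits above 10.6 in every Py8119 and mixed sample and below 9.3 in every Py117 sample, and the Cdkn1a groups lie closer together in tumours than in cultures.

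Of the 15 immediate early genes, markers of recent growth factor or handling stress, 12 were lower and 0 higher in Py8119 than in Py117 cultures, against 12.3% and 14.5% of all genes (limma; 14 lower and 0 higher at an unadjusted p under 0.05). Their mean was 8.36 to 8.64 in Py117 cultures and 7.68 to 7.74 in Py8119 cultures, and 7.43 to 7.97 in Py117 and Py8119 tumours. Fos had the largest culture difference (-2.59 ± 0.31, adjusted p = 0.000959). This list thus moved with Btg2, Plk3 and Cdkn1a in the same cultures, and its part in their differences was not tested.

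Of the 13 death genes, 8 were lower and 0 higher in Py8119 cultures (limma; 1 higher at an unadjusted p under 0.05), against 12.3% and 14.5% of all genes. In tumours 8 were lower and 2 higher, against 16.5% and 21%. Perp, a membrane protein of desmosomes that also promotes apoptosis, had the largest difference of the 30 genes. It was at 11.25, 11.41 and 11.36 in Py117 cultures and at 7.76, 7.84 and 7.70 in Py8119 cultures (11.9-fold lower, -3.57 ± 0.09, limma adjusted p = 2.06e-06). In tumours it was at 9.95, 10.15, 9.92, 10.19 and 9.87 for Py117 and at 6.02, 5.90, 6.63, 6.60 and 6.21 for Py8119 (13.4-fold lower, -3.74 ± 0.15, adjusted p = 2.14e-12). The mixed tumours, at 7.48, 7.93, 7.61, 8.10 and 7.57, lay between both without overlap. Perp was lower in tumours than in culture in both lines, by differences of -1.32 ± 0.11 and -1.50 ± 0.17.

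Trp53inp1, a nuclear and autophagy protein induced by stress, came next. It was at 8.46, 8.03 and 8.02 in Py117 cultures and at 4.98, 5.17 and 5.93 in Py8119 cultures, where only Py8119 culture 3 was above the background reference. Tumour values were 9.59, 9.55, 9.16, 9.95 and 9.56 for Py117, 7.85, 8.23, 7.92, 7.98 and 7.96 for mixed and 7.16, 7.06, 7.29, 7.77 and 7.28 for Py8119 tumours. The 3 tumour groups did not overlap. The line difference was -2.81 ± 0.26 in cultures (7.02-fold, limma adjusted p = 0.000256), a value limited by background in Py8119, and -2.25 ± 0.14 in tumours (4.76-fold, adjusted p = 6.84e-10).

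The death receptors differed in setting dependence. Fas, the receptor of Fas ligand, was at 7.04, 7.02 and 6.93 in Py117 and 5.94, 5.85 and 5.95 in Py8119 cultures (-1.08 ± 0.09, limma adjusted p = 0.000168). In tumours it was at 7.67, 7.61, 7.74, 7.82 and 7.58 for Py117 and at 6.20, 6.37, 6.62, 6.69 and 6.41 for Py8119 (-1.23 ± 0.13, adjusted p = 7.51e-07). Every Py8119 sample lay below every Py117 sample within each setting, and the interaction of -0.14 ± 0.15 did not pass the test (adjusted p = 0.631). Tnfrsf10b, a TRAIL receptor, was lower in Py8119 by -1.14 ± 0.09 in cultures and -0.46 ± 0.09 in tumours, and its interaction of 0.68 ± 0.14 passed the test (adjusted p = 0.00379). Tnfrsf23, a decoy TRAIL receptor, did not differ by the test in cultures (0.01 ± 0.24) and was higher in Py8119 tumours (0.52 ± 0.15, adjusted p = 0.0109), a call lost without Py117 tumours 1, 4 and 5 (0.17, adjusted p = 0.359).

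Eda2r, a receptor of the TNF family that binds an ectodysplasin isoform, changed most between settings. It was at 7.54, 7.48 and 7.57 in Py117 cultures and at 5.06, 5.42 and 5.24 in Py8119 cultures, a group mean below background. In tumours it was at 5.81, 6.67, 6.64, 6.77 and 6.16 for Py117 and at 5.79, 6.06, 6.28, 6.46 and 6.26 for Py8119. The culture groups were far apart (-2.29 ± 0.11, limma adjusted p = 1.74e-05), and the tumour groups overlapped (-0.24 ± 0.16, adjusted p = 0.287). Without Py117 tumour 1, the lowest of its group, the tumour difference passed the test (adjusted p = 0.0292). It also passed without Py117 tumours 1, 4 and 5 (-0.48, adjusted p = 0.0137) and with the adipocyte mean as a covariate (-0.53, adjusted p = 0.0335). The interaction was 2.05 ± 0.27 (adjusted p = 5.59e-05).

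Phlda3, an inhibitor of Akt signalling at the membrane, was lower in Py8119 by -1.75 ± 0.13 in cultures and by -0.70 ± 0.13 in tumours, with an interaction of 1.05 ± 0.22 (limma adjusted p = 0.00382). Without Py117 tumours 1, 4 and 5 the tumour difference was -1.07 (adjusted p = 1.1e-06) and the interaction 0.68 (adjusted p = 0.0147). Zmat3, an RNA-binding regulator of splicing, was lower by -0.54 ± 0.10 and -0.45 ± 0.10. Ei24, an endoplasmic reticulum protein, was lower by -0.71 ± 0.09 and -0.86 ± 0.08. For Zmat3 and Ei24 the groups did not overlap in either setting and the interaction did not pass the test.

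The BH3-only genes Bbc3 and Pmaip1, which encode Puma and Noxa, gave low signals. Bbc3 means lay between 5.13 and 5.42 and were below the background reference in 4 of 5 groups, which limits any difference. It had no call as deposited. Py117 tumours were called lower than Py117 cultures after median centring (-0.39, limma adjusted p = 0.00968) and quantile normalization (-0.29, adjusted p = 0.0337). Pmaip1 means lay between 5.44 and 5.89, and its lower value in Py8119 tumours (-0.36 ± 0.13, limma adjusted p = 0.0334) was lost in 10 of the alternative settings, with adjusted p up to 0.122. Leaving out any 1 of Py117 tumours 2, 3 and 5 or Py8119 tumours 2, 3, 4 and 5 gave 0.0537 to 0.0914. Leaving out Py117 tumours 1, 4 and 5 together made it larger (-0.56, adjusted p = 0.00707). Aen, a p53-induced nuclease, had culture means of 8.09 ± 0.27 (SD, n = 3) and 7.65 ± 0.02 (n = 3) and just missed the threshold (-0.44 ± 0.14, adjusted p = 0.0582). It passed under quantile normalization (adjusted p = 0.0419), without dim genes (0.0196), in 1 fit of all arrays (0.0222) and with an intensity trend and robust prior (0.0111). Pidd1, a scaffold that activates caspase-2, was higher in Py8119 tumours by 0.41 ± 0.10 (adjusted p = 0.00278).

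Repair and metabolism genes were split, with 3 of 6 higher and 3 lower in Py8119 tumours, against 21% and 16.5% of all genes. Dram1, a lysosomal protein of autophagy, was at 7.04, 6.99 and 6.54 in Py117 and 5.70, 6.08 and 5.62 in Py8119 cultures (-1.06 ± 0.18, limma adjusted p = 0.00452). In tumours it was at 8.62, 8.61, 9.19, 9.42 and 9.70 for Py117, at 7.65, 7.99, 8.45, 8.0 and 7.90 for mixed and at 7.09, 7.19, 7.14, 7.88 and 7.21 for Py8119 tumours. Py117 and Py8119 tumours did not overlap (-1.81 ± 0.21, adjusted p = 1.49e-06), while Py8119 tumour 4 lay within the mixed range.

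Ercc5, an endonuclease of nucleotide excision repair, was lower in Py8119 by -0.96 ± 0.09 in cultures (limma adjusted p = 0.000255) and -1.09 ± 0.09 in tumours (adjusted p = 1.44e-08). Rrm2b, the p53-inducible ribonucleotide reductase subunit, was higher by 0.72 ± 0.10 (adjusted p = 0.00207) and 0.54 ± 0.11 (adjusted p = 0.000679). Tigar, a phosphatase that lowers glycolytic flux, was higher by 0.82 ± 0.11 and 0.74 ± 0.09. These 3 genes did not overlap between lines in either setting, and no interaction passed the test.

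The sestrins, which restrain mTORC1 and oxidants, went apart in tumours. Sesn1 was higher in Py8119 tumours (0.62 ± 0.15, limma adjusted p = 0.00246) and Sesn2 lower (-0.53 ± 0.10, adjusted p = 0.000294). In cultures neither passed the test (0.38 ± 0.15 and -0.40 ± 0.16), but leaving out Py8119 culture 3 gave Sesn1 an adjusted p of 0.0331 and leaving out Py117 culture 3 gave Sesn2 0.0228. Sesn1 also passed after median centring (adjusted p = 0.0335) and without dim genes (0.0482). Sesn2 also passed without dim genes (adjusted p = 0.0454), in 1 fit of all arrays (0.0362) and with an intensity trend and robust prior (0.0479).

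**Figure D3:**
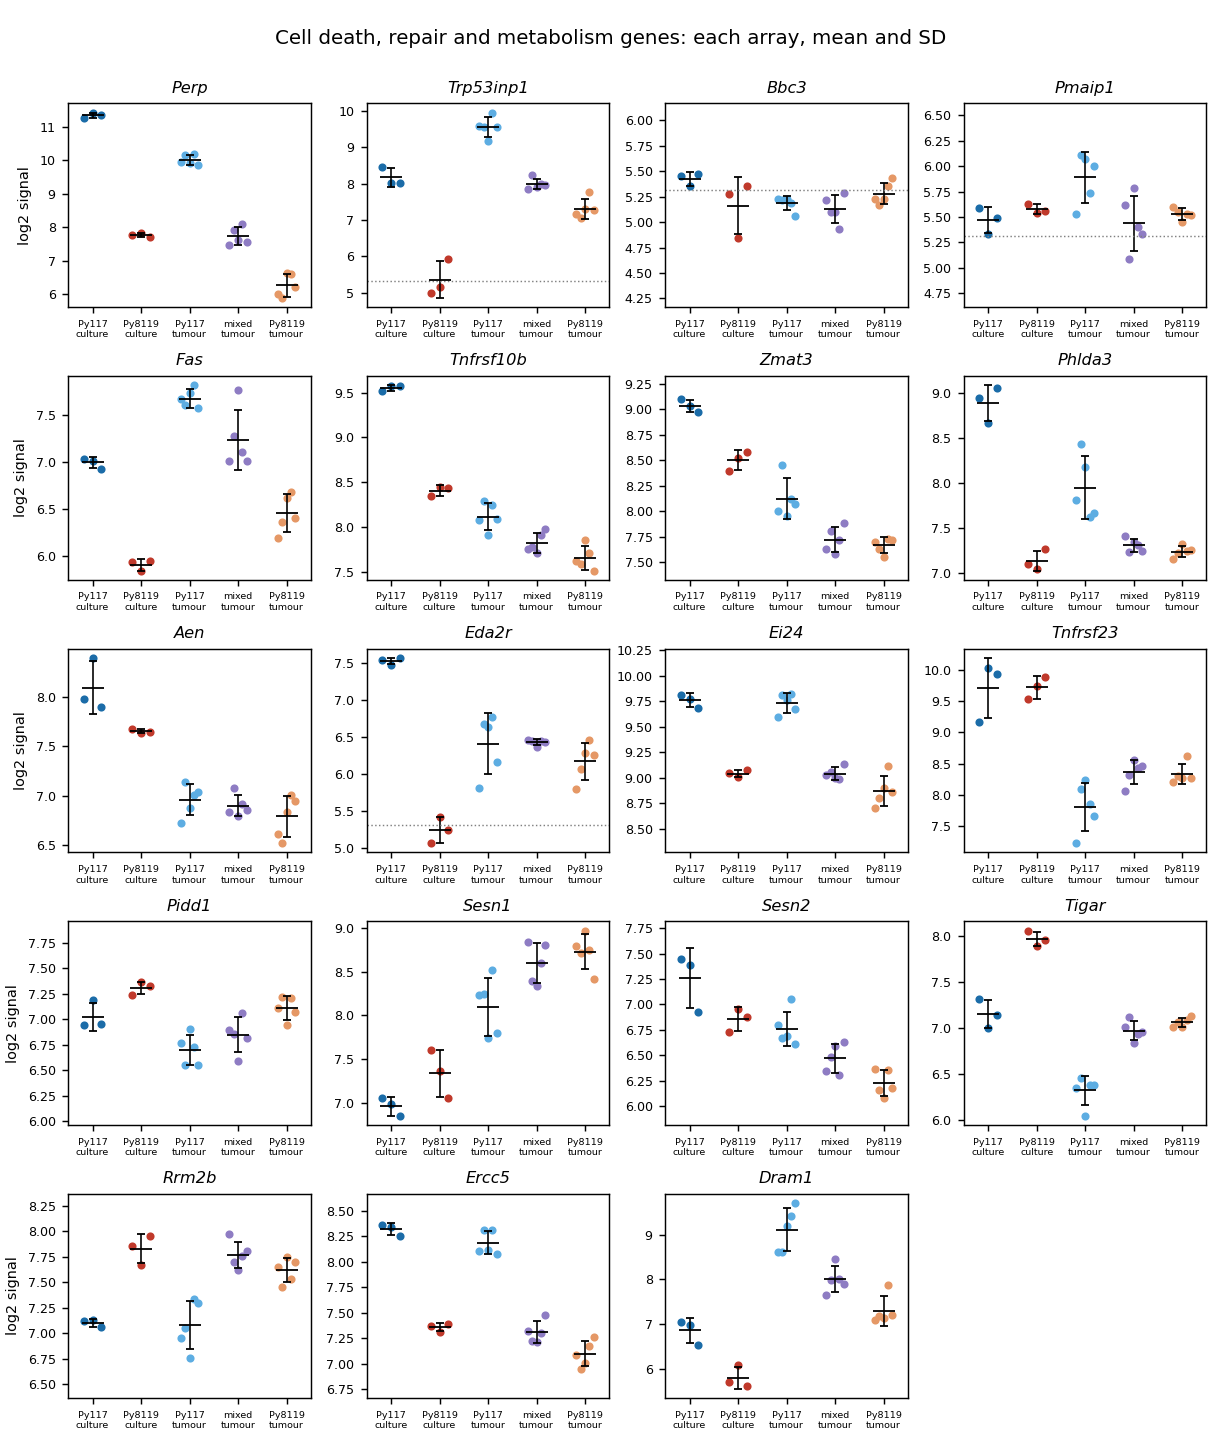
Log2 signal of the death, repair and metabolism genes on each array, by group, with the mean and SD (3 arrays in each culture group, 5 in each tumour group). The dotted line, drawn where it falls in the panel, marks the background reference of 5.31. Perp, Trp53inp1 and Ercc5 separate the lines in both settings, and the Eda2r groups are apart in cultures and overlap in tumours.

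The probe set shared by Gadd45a and E230016M11Rik had means of 6.82 ± 0.19 (SD, n = 3) and 7.42 ± 0.20 (n = 3) in Py117 and Py8119 cultures, and 9.37 ± 0.21 (n = 5), 8.45 ± 0.16 (n = 5) and 8.01 ± 0.26 (n = 5) in Py117, mixed and Py8119 tumours. The set shared by Ddb2 and Acp2 had 7.37 ± 0.16 (n = 3) and 6.13 ± 0.18 (n = 3) in the cultures, and 7.53 ± 0.35, 7.34 ± 0.24 and 7.45 ± 0.14 (n = 5 each) in the tumours. The genes behind these signals cannot be told apart.

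Tumours differed from cultures in both lines, with 6 p53 genes higher and 13 lower for Py117 (12.4% and 18.3% of all genes) and 10 higher and 11 lower for Py8119 (16.3% and 20.9%). That is 19 genes called in Py117 (30.7% of all) and 21 in Py8119 (37.1%). After median centring, the Py8119 split was 9 higher and 17 lower. Centring moved the median difference of all genes by -0.21 for Py8119, -0.16 for Py117 and 0.15 for cultures. The same call was made in both lines for 14 genes, and the share of all genes called alike in both lines was not counted. Mdm4, Trp53inp1, Fas, Sesn1 and Dram1 were higher in tumours, and Mdm2, Perp, Tnfrsf10b, Gadd45b, Sesn2, Zmat3, Aen, Tigar and Tnfrsf23 were lower.

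Dram1 had the largest rise in Py117 (2.25 ± 0.25, 4.76-fold, limma adjusted p = 6.94e-05) and Trp53inp1 in Py8119 (1.96 ± 0.22, 3.88-fold, adjusted p = 7.27e-05). Tnfrsf23 had the largest fall in Py117 (-1.90 ± 0.25, adjusted p = 0.000216) and Perp in Py8119 (-1.50 ± 0.17, adjusted p = 8.83e-05). Host markers rose in the same comparisons: 11 of 13 immune genes in Py117 and 12 of 13 in Py8119, with a mean of 5.03 to 5.26 in all cultures and 7.42 to 8.39 in all tumours. All 10 fibroblast genes rose in Py117, and 8 rose and 1 fell in Py8119. Their part in the tumour levels of Dram1, Trp53inp1, Fas and Sesn1 was not tested.

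Some tumour calls depended on single arrays. For Sesn2 in Py117 (-0.49 ± 0.15, limma adjusted p = 0.0303), leaving out Py117 culture 1 or 2 or tumour 2 or 5 gave an adjusted p of 0.0629 to 0.139. For the rise of Plk2 in Py117 (0.44 ± 0.14, adjusted p = 0.0339), leaving out Py117 culture 1 or 3 or tumour 1, 4 or 5 gave 0.0612 to 0.139. The fall of Ercc5 in Py8119 (-0.26 ± 0.09, just inside the threshold) was lost without any 1 of 7 of its 8 arrays, all but Py8119 tumour 5 (adjusted p of 0.0505 to 0.130).

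The line differences changed between cultures and tumours for 10 of the 30 genes (13.5% of all genes), 9 upward and 1 downward, against 7.5% and 5.99% of all genes (limma interaction). Upward means that the Py8119 minus Py117 difference was more positive in tumours. Of the 9, 7 were lower in Py8119 cultures: Mdm2, Cdkn1a, Tnfrsf10b, Ccng1, Phlda3, Eda2r and Plk3. Cdkn2b and Gadd45b (0.85 ± 0.24, adjusted p = 0.0228) were the others, and Plk2 was the downward one. The Gadd45b value had an adjusted p of 0.0616 without Py8119 culture 3 or 0.0820 without Py117 culture 2, and 0.145 without Py117 tumours 1, 4 and 5. The pattern was not particular to p53 genes. Of 30 epithelial genes, 10 had an upward and 2 a downward interaction, and all 10 were lower in Py8119 cultures. Of 15 immediate early genes, 8 had an upward and 0 a downward interaction (9 and 0 at an unadjusted p under 0.05). By contrast, 9 of the 13 p53 genes lower in both settings had no interaction call as deposited: Mdm4, Perp, Trp53inp1, Fas, Btg2, Zmat3, Ei24, Ercc5 and Dram1. Of these, Btg2 gained an upward call without Py117 tumours 1, 4 and 5 (0.57, limma interaction, adjusted p = 0.0363).

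The tumour difference was 0.384% of the culture difference for Mdm2, 10.4% for Eda2r, 33.4% for Ccng1, 37.7% for Cdkn1a, 40.2% for Phlda3 and 40.4% for Tnfrsf10b, on the log2 scale. For Perp it was 105% and for Fas 113%. Over the 9 genes lower in both settings with no interaction call, it ran from 57.0% (Btg2) to 171% (Dram1). The shares of Eda2r, Ccng1, Cdkn1a and Phlda3 depended on the Py117 tumours of highest adipocyte mean. Leaving these out kept only Py117 tumours 2 and 3, which had the highest fibroblast means of the group (10.4 and 10.16). Fat, fibroblasts and the number of arrays thus changed together and cannot be told apart. Without tumours 1, 4 and 5 the share was 21.1% for Eda2r, 42.9% for Ccng1, 57.4% for Cdkn1a, 61.2% for Phlda3 and 38.3% for Tnfrsf10b, and the Mdm2 tumour difference was 0.05. All 6 stayed below Perp (105%) and Fas (112%) there. The shares of Ccng1, Cdkn1a and Phlda3 were above that of Btg2 (-0.39 in tumours there, -0.96 in cultures). Of these 6 genes, the upstream window of Cdkn1a and the windows of Mdm2 and Ccng1 hold p53 decamers. The listed windows of Eda2r and Phlda3 hold none, and no window was listed for Tnfrsf10b. Those of Plk3, Cdkn2b, Gadd45b and Plk2, the other genes with an interaction call, hold none either. Decamers were also found for Sesn1, Aen and Ei24, which had no interaction call.

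**Figure D4:**
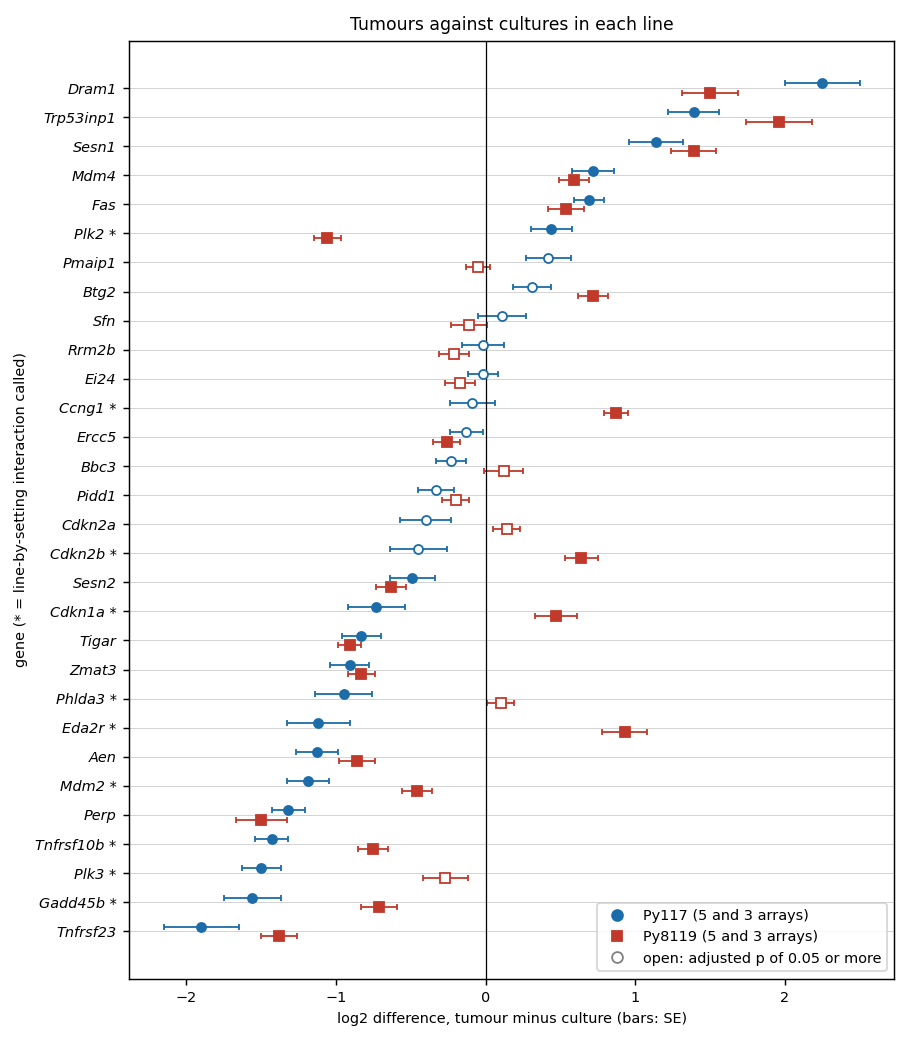
Log2 difference of tumours minus cultures for each p53 gene in Py117 and in Py8119, with bars for the SE and open symbols where the limma adjusted p was 0.05 or more. Stars mark genes with an interaction call. Cdkn1a and Eda2r fell in Py117 and rose in Py8119, and Plk2 the reverse.

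Mixed tumours differed from Py117 tumours in 22 p53 genes (36.1% of all genes) and from Py8119 tumours in 3 (1.78%). Against Py117 tumours, 15 were lower and 7 higher (16.9% and 19.2% of all genes). Against Py8119 tumours, Perp, Trp53inp1 and Fas were higher and 0 were lower, where limma called 1.61% and 0.162% of all genes. At an unadjusted p under 0.05, 6 were higher and 2 lower. Both comparisons and the one between the parental tumours share samples. Perp was higher in mixed than in Py8119 tumours by 1.47 ± 0.15 (adjusted p = 1.17e-05), Fas by 0.78 ± 0.13 (adjusted p = 0.00273) and Trp53inp1 by 0.68 ± 0.14 (adjusted p = 0.0144). Without mixed tumour 2 or Py8119 tumour 2, the Trp53inp1 value had an adjusted p of 0.0558 or 0.0546. Dram1 was not called (0.70 ± 0.21, adjusted p = 0.125) but passed without Py8119 tumour 4 (adjusted p = 0.0440).

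Several calls of mixed against Py117 tumours also moved with fewer arrays. Without Py117 tumour 2, 3 or 4, Ccng1 (-0.32 ± 0.10, limma adjusted p = 0.0231) had an adjusted p of 0.0520 to 0.0658, and without Py117 tumour 2 Tnfrsf10b (-0.29 ± 0.09, adjusted p = 0.0194) had 0.0576. Sesn2 (-0.29 ± 0.10, adjusted p = 0.0301) had 0.0514 to 0.0842 without Py117 tumour 1 or 4 or mixed tumour 1, 2 or 4. Without Py117 tumours 1, 4 and 5, the lower values of Fas (-0.44, adjusted p = 0.0754) and Btg2 (-0.25, adjusted p = 0.155) did not pass. Nor did those of Tnfrsf10b (-0.27, adjusted p = 0.107) and Sesn2 (-0.21, adjusted p = 0.181), or the higher value of Tnfrsf23 (0.21, adjusted p = 0.248). In that setting the lower value of Cdkn1a was -1.12 rather than -0.74.

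The place of a mixed tumour between the means of the parental tumours was set on the linear scale, with Py117 at 0% and Py8119 at 100%, for genes that differed by at least 1 log2 unit. For 7 p53 genes the median place was 84.5%. It was 84.6% ± 9.34 (SD, n = 5) for Cdkn2a, 80.0% ± 7.04 for Cdkn2b, 85.7% ± 4.26 for Perp, 84.5% ± 4.37 for Trp53inp1, 86.1% ± 7.99 for Ercc5 and 76.3% ± 13.3 for Dram1. Cdkn2a and Cdkn2b are high in Py8119 and the others in Py117. Fas was apart from them, at 44.4% ± 31.7, with mixed tumour 3 at -9.89%, above the Py117 mean. That tumour also had the highest immune gene mean of the mixed group (8.22, the others 7.73 to 7.92), and the part of immune cells in its Fas level was not tested. For 24 epithelial genes the median was 86.2% (78.1% to 93.8%). On the log2 scale the medians were 69.9% and 68.5%. The place is one of signal, not a share of cells.

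**Figure D5:**
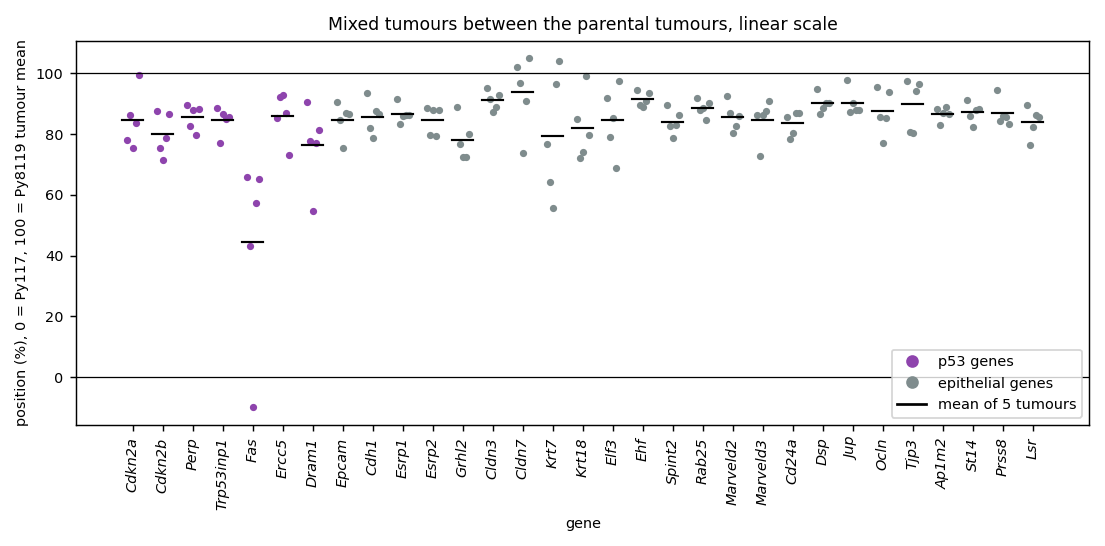
Place of each mixed tumour between the parental tumour means for the p53 genes that differed by at least 1 log2 unit, as a percentage on the linear scale (0% is the Py117 mean, 100% the Py8119 mean). Points are single tumours. Most lie between 70% and 100%, and Fas reaches from -9.89% to 65.8%.

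Which p53 genes followed epithelial identity was read from 4 calls: lower in Py8119 cultures, lower in Py8119 tumours, lower in mixed than in Py117 tumours and higher in mixed than in Py8119 tumours. Of the 30 epithelial markers, 17 had this full pattern, and 27 were lower in Py8119 cultures, 27 in Py8119 tumours and 25 in both. Of the 30 p53 genes, 3 had it: Perp, Trp53inp1 and Fas. Only Perp kept all 4 calls under every alternative. Fas lost its call against Py117 tumours without the 3 Py117 tumours of highest adipocyte mean (-0.44, limma adjusted p = 0.0754). Trp53inp1 lost the last call without mixed tumour 2 (adjusted p = 0.0558) or Py8119 tumour 2 (adjusted p = 0.0546). Dram1 missed only the last call (0.70, adjusted p = 0.125) and passed it without Py8119 tumour 4 (adjusted p = 0.044). The share of all genes with this full pattern was not counted, so how common it is cannot be read from these counts. The median epithelial gene differed by -3.32, -2.46, -1.71 and 0.70 in the 4 comparisons. Trp53inp1, shown because its values lay nearest to these medians among the 30 p53 genes, differed by -2.81, -2.25, -1.57 and 0.68 in the same order. In Py8119 cultures, signals near background limit the culture differences of Trp53inp1 and of 13 of the 30 epithelial genes. A ranking by likeness to the epithelial genes is therefore not relied on. These comparisons share samples.

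Sfn, although an epithelial p53 target, had none of these 4 calls. The p53 relative Trp63, the regulator of basal epithelium that also drives Perp, was near background, with means of 5.72 and 5.29 in Py117 and Py8119 cultures and 6.03, 5.49 and 5.43 in Py117, mixed and Py8119 tumours. It was lower in Py8119 tumours (-0.59 ± 0.09, limma adjusted p = 2.68e-05) and did not pass in cultures (-0.43 ± 0.16, adjusted p = 0.0963). Trp73 means of 5.13 to 5.49 gave no call. Of 13 basal genes, 6 were lower and 1 higher in Py8119 cultures, against 12.3% and 14.5% of all genes, with Krt14 at 9.91 against 5.65 (-4.27 ± 0.18, adjusted p = 8.81e-06).

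Of 43 other measured p53 targets, 17 were lower and 6 higher in Py8119 cultures, with a median of -0.25, against 12.3% and 14.5% of all genes. The higher count was thus near that of all genes. In tumours 22 were lower and 10 higher, with a median of -0.29, against 16.5% and 21%. Ephx1, an epoxide hydrolase, was the most reduced in each (-4.56 ± 0.14, limma adjusted p = 2.34e-06, and -2.80 ± 0.17, adjusted p = 4.04e-10). Trp53i11 was at 10.73 in Py117 and 6.22 in Py8119 cultures and at 10.92 and 9.97 in the tumours, an interaction of 3.55 ± 0.26 (adjusted p = 1.50e-07). Ppm1d, the phosphatase that switches p53 signalling off, was higher in Py8119 cultures (0.41 ± 0.11, adjusted p = 0.0303) and did not pass in tumours (0.05 ± 0.11). Between settings, 11 of the 43 had an upward and 5 a downward interaction, against 7.5% and 5.99% of all genes.

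Of 27 other regulators of p53, 9 were higher and 3 lower in Py8119 cultures, against 14.5% and 12.3% of all genes, so the lower count was near that of all genes. In tumours 11 were higher and 6 lower, against 21% and 16.5%. Atm, the kinase that signals DNA breaks to p53, was higher in Py8119 cultures (0.77 ± 0.09, limma adjusted p = 0.000684) and just missed the threshold in tumours (0.25 ± 0.10, adjusted p = 0.0506). Myc was higher in both (0.37 ± 0.10, adjusted p = 0.0266, and 1.04 ± 0.12, adjusted p = 1.94e-06). Nfib was lower in both, by -1.32 ± 0.09 and -1.38 ± 0.10.

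Genes that p21 represses through the DREAM complex, mainly of the cell cycle, were called higher more often than lower in Py8119, where Cdkn1a was lower. Of 16, 6 were higher and 2 lower in Py8119 cultures and 12 higher and 0 lower in Py8119 tumours (limma; 1 lower at an unadjusted p under 0.05). Among all genes 14.5% were higher and 12.3% lower in cultures, near the lower count of this list, and 21% and 16.5% in tumours. Mcm2, a replicative helicase subunit, was higher by 1.00 ± 0.10 (adjusted p = 0.000454) and 0.98 ± 0.10 (adjusted p = 2.69e-07). All 16 were lower in tumours than in culture in both lines, against 18.3% of all genes in Py117 and 20.9% in Py8119. Plk1 differed by -1.52 ± 0.13 in Py117 and -1.26 ± 0.09 in Py8119. Cdkn1a was called lower in tumours for Py117 and higher for Py8119, but these calls did not hold throughout. The part of p21 in the levels of these genes was not tested.

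Of 17 genes of the Bcl2 family and caspases, 8 were lower and 0 higher in Py8119 cultures (limma; 2 higher at an unadjusted p under 0.05), and 5 were higher and 2 lower in Py8119 tumours. Among all genes 12.3% were lower and 14.5% higher in cultures. The 7 genes called in tumours are 41.2% of the list, near the 37.4% of all genes. The antiapoptotic Bcl2l1 (-1.11 ± 0.08, limma adjusted p = 0.000114) and Bcl2 (-0.92 ± 0.11, adjusted p = 0.000772) and the proapoptotic Bcl2l11 (-1.01 ± 0.10, adjusted p = 0.000345) and Bid (-0.92 ± 0.10, adjusted p = 0.000650) were among those lower in cultures. Of 17 genes of the Rb pathway, on which Ink4a and Ink4b act, 11 were higher and 2 lower in Py8119 tumours, against 21% and 16.5% of all genes, including Cdk6 (1.04 ± 0.12, adjusted p = 1.62e-06) and Cdk4 (0.75 ± 0.08, adjusted p = 1.21e-06).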

How the data were processed

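RNA of 21 samples was measured on Affymetrix whole-transcript arrays. The submitters' processing notes list RMA and limma without versions, and the authors deposited log2 signals, taken here to be the RMA output. The array build and labels of hybridization batch were not given in the sources used here, so batches could not be examined, and a batch between cultures and tumours cannot be told apart from the setting. The number of arrays limits the precision.

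Of 41345 probe sets, 23521 had 1 gene symbol, 1814 several and 16010 none. Single-symbol probe sets were used, and for 1082 genes with several the brightest on average across the 21 arrays was kept, which gave 22180 genes. Each p53 gene measured had 1 such probe set.

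Tests used lmFit and eBayes of limma 3.58.1 under R 4.3.3, with Benjamini-Hochberg adjustment over all 22180 genes and calls at an adjusted p under 0.05. Cultures were fitted alone (6 arrays), tumours together (15), each line for tumour against culture (8), and the interaction over the unmixed groups (16). The procedure was tested on simulated data. All p53 genes with a probe set were named, and of other lists up to 4 called genes with the largest difference in a comparison plus a few fixed ones. The p53 genes and all lists were chosen with earlier results of these data known. Alternatives were median centring, quantile normalization, leaving out dim genes, the mean of all probe sets, 1 fit of all arrays, an intensity trend with a robust prior, a replicate block and leaving out each array. After seeing the data, 3 Py117 tumours of highest adipocyte mean were left out, and that mean was used as a covariate. Leaving them out kept only Py117 tumours 2 and 3 in that group, so a call lost there can also reflect fewer arrays. Figures were drawn with matplotlib 3.10.9.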

Additional observations from a re-analysis of the deposited data

Results flagged for a closer look

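Single arrays far from the rest of their group were found in 4 of the 90 sets of a p53 gene and a tumour group, against about 1 in 20 by chance. Bbc3 was at 5.06 in Py117 tumour 5, with the others at 5.19 to 5.23, all below background. Tigar was at 6.04 in Py117 tumour 3, with the others at 6.34 to 6.45. Py8119 tumour 4 was high for Dram1 at 7.88 (the others 7.09 to 7.21) and for Tnfrsf23 at 8.62 (the others 8.21 to 8.31). That tumour also had the highest adipocyte (6.34) and fibroblast (9.0) means of its group, and their part was not tested.

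For 10 genes the difference between lines changed between cultures and tumours, by the limma interaction described above. The line difference was more positive in tumours for Eda2r (2.05), Plk3 (1.22), Cdkn1a (1.21), Cdkn2b (1.09), Phlda3 (1.05), Ccng1 (0.95), Gadd45b (0.85), Mdm2 (0.73) and Tnfrsf10b (0.68), in log2 units. It was more negative in tumours for Plk2 (-1.50).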

How the results depend on the processing

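No called difference of a p53 gene changed sign. Of 89 not called, 24 did under at least 1 alternative, such as Eda2r in mixed against Py117 tumours (0.02, and -0.22 without the 3 Py117 tumours of highest adipocyte mean). Of 121 called differences of p53 genes, 101 kept their call under every alternative tried and 20 lost it under at least 1. Those not given beside their result are the rise of Fas in Py8119 tumours against culture under quantile normalization (adjusted p = 0.0687) and the block value of Mdm2 below. Median centring gave 8 genes higher in Py8119 cultures (5 as deposited) and 17 lower in Py8119 tumours than in culture (11 as deposited). Quantile normalization gave 2 lower genes in the interaction (1 as deposited), as did leaving out the 3 Py117 tumours of highest adipocyte mean. Leaving out 1 array at a time gave 4 to 6 higher and 16 to 17 lower genes in cultures, 9 and 15 to 17 between parental tumours, 7 and 13 to 15 for mixed against Py117 and 2 to 4 and 0 for mixed against Py8119 tumours. For tumours against culture it gave 5 to 6 higher and 11 to 16 lower in Py117, 9 to 10 and 10 to 11 in Py8119, and 8 to 10 and 1 to 2 for the interaction, where 2 came without Py117 tumour 1. Same-numbered replicates did not pair: the correlation of their deviations ran from 0.04 to 0.13 between cultures, from -0.05 to 0.26 between Py117 and mixed tumours and from -0.23 to 0.10 for the other tumour pairs. With a replicate block, 7 of 210 differences lost their call and 0 gained one, among them Mdm2 in Py8119 tumours against culture (adjusted p = 0.0604). Signals near background, as for Bbc3, Pmaip1, Eda2r and Trp53inp1 in Py8119 cultures, limit what could be measured.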
